A study of Mus musculus with 24 samples.

Results

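CD4 T cells that lacked BATF and BATF3 and received the higher dose of anti-CD3e were compared with wild-type CD4 T cells that received the lower dose, both on day 4 of culture. The question was whether strong stimulation without these factors gives the transcriptome of weak stimulation with them. The arrays were chosen by sample title: 3 of Batf1/3DKO cells at 10 ng/ml and 3 of WT cells at 2.2 ng/ml, 6 of the 24 arrays of the series. The other groups, also of 3 arrays each, were WT cells at 10 ng/ml and Batf1/3DKO cells at 2.2 ng/ml on day 4, and cells of both genotypes on days 0 and 2. The wild-type mice were 129SvEv and the knockout carried deletions of both factors. All the cultured cells began as naive CD4 T cells and received soluble anti-CD3e, which engages the T cell receptor, together with anti-CD28 held by anti-hamster IgG on the plate, in a medium that polarises them to TH2. Age, and whether replicates came from separate mice or cultures, are not stated in the labels, so each p-value is set against a spread that could be technical only. The comparison changes genotype and dose together, and the 2 other groups of day 4 were used to show each change on its own. These neighbouring comparisons share arrays with the main one.

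BATF and BATF3 are basic leucine zipper proteins of the AP-1 family that pair with JUN proteins. With the interferon regulatory factors IRF4 and IRF8 they bind composite DNA elements, in which an AP-1 site lies beside an IRF site. In helper T cells IRF4 rises with the strength of T cell receptor signalling, and BATF is required for cytokines and regulators of several effector fates, TH2 among them.

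Values are RMA intensities, a background-corrected and normalised array signal on a linear scale. Differences are given as log2 of the Batf1/3DKO high-dose group over the WT low-dose group with the standard error (SE), so that a negative value is lower in the knockout. They come from 1 limma fit to 8 groups and all 24 arrays, with p-values adjusted by Benjamini-Hochberg over 19938 genes, and a gene is called at an adjusted p under 0.05. The median gene had an intensity of 32.2 over all arrays, which serves as a rough guide to dim genes. In bulk RNA, fewer cells of a type and less RNA per cell cannot be told apart. Replicate 3 of the WT low-dose group stood apart from its fellows at several genes: Irf4 was 588 there against 338 and 267, and Il4 was 99.9 against 22.2 and 18.1. Named genes and lists that it moved most are given with and without it. For 24 of the named genes called, adding 16 to each intensity before taking logs moved the fold change by more than 1.5 times; Csn2 went from 71.7-fold to 34.7-fold, and folds of genes whose lower group lies under the median gene are to be read with this in mind.

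Of the 19938 genes, 579 were called higher (2.9%) and 441 lower (2.21%) in the knockout at high dose than in the wild type at low dose. Of these, 189 were higher and 134 lower by at least 2-fold. For 18850 genes (94.5%) the 95% confidence interval of the difference lay wholly within 2-fold in either direction, and for 420 genes that were not called it reached beyond 2-fold, so those could differ by more. The count of higher genes was 384 without WT low-dose replicate 2 and 370 without knockout high-dose replicate 2; without WT replicate 3 the counts were 567 higher and 485 lower, and 825 of the 1020 calls were kept.

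Changing one factor at a time gave other counts. Loss of the factors at low dose called 329 genes higher (1.65%) and 410 lower (2.06%), and the higher dose within the knockout called 891 higher (4.47%) and 734 lower (3.68%). Loss of the factors at high dose called 1331 higher (6.68%) and 1214 lower (6.09%), and the higher dose within the wild type called 1523 higher (7.64%) and 1499 lower (7.52%). Across genes, single arrays of the knockout at high dose and the wild type at low dose correlated at r = 0.976 to 0.982. The knockout at high dose correlated with the wild type at high dose at 0.966 to 0.968. With the knockout at low dose it correlated at 0.972 to 0.983, a range that spans that of the compared groups. The genotypes at low dose correlated at 0.9747 to 0.9832, which spans it too. Genes are not independent replicates, and arrays within the compared groups correlated at 0.985 to 0.992. Between single arrays, 406 to 687 genes differed by over 2-fold in the compared pair of groups, against 827 to 981 between the genotypes at high dose. The number was 407 to 867 between the doses in the knockout and 331 to 726 between the genotypes at low dose. Within groups it was 111 to 315 for the WT low dose and 59 to 76 for the knockout high dose. Of the 1020 called genes, 996 had groups that did not overlap, as did 3916 of all genes.

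**Figure D1:**
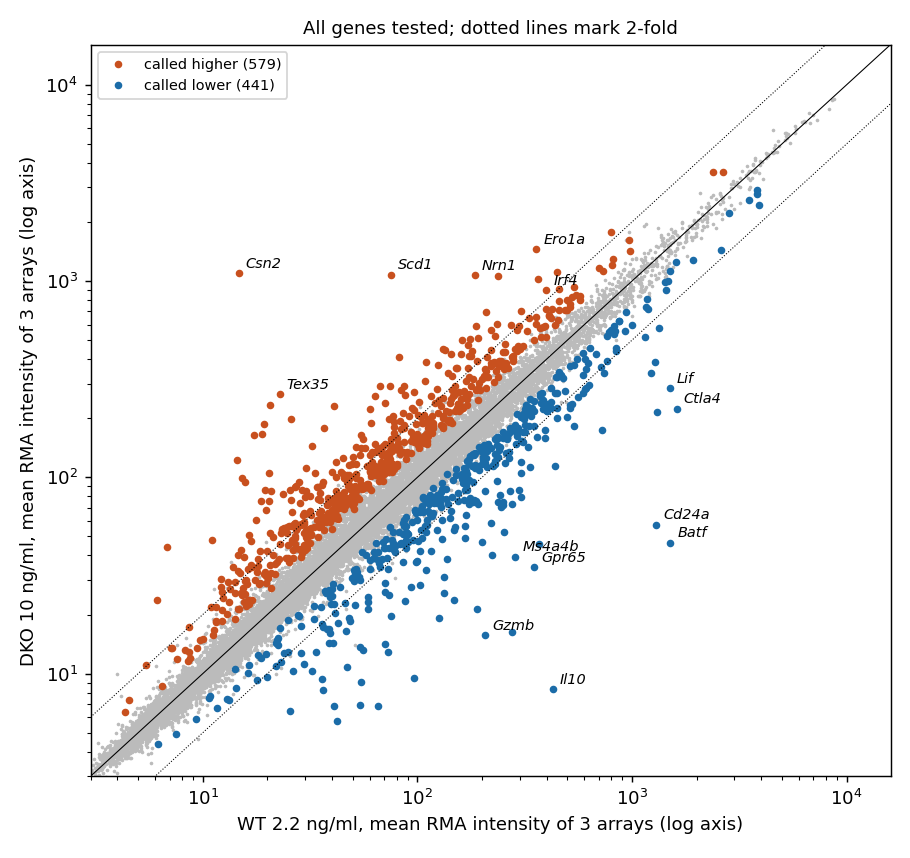
Mean RMA intensity of each of the 19938 genes in the WT group at 2.2 ng/ml (horizontal, log axis) and the Batf1/3DKO group at 10 ng/ml (vertical, log axis), 3 arrays each. Orange points are the 579 genes called higher in the knockout and blue points the 441 called lower; the solid line marks equal levels and the dotted lines 2-fold. Csn2, Scd1 and Tex35 lie far above the line, and Il10, Batf and Cd24a far below it.

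The deleted genes checked the labels in part. Batf read 1424, 1451 and 1652 in the wild type at low dose and 43.0, 44.4 and 52.1 in the knockout at high dose, a difference of -5.02 ± 0.16 (SE; adjusted p = 1.13e-16). The groups lay far apart on every array. Batf3 read 33.7, 29.7 and 23.5 against 33.3, 24.7 and 31.5 and was not called (0.05 ± 0.19, adjusted p = 0.967): the wild type at low dose held no more signal than the knockout. At high dose the wild type reached 146 ± 32.8 (SD, n = 3) for Batf3, and the difference between genotypes there was -2.28 ± 0.19 (adjusted p = 2.71e-09). No source used here says where the probes lie relative to the deleted sequence.

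Irf4, Irf8 and Jun, which encode partners of the missing factors, were higher, and Junb and Jund were not called. Irf4 was 338, 267 and 588 in the wild type at low dose and 878, 971 and 838 in the knockout at high dose, 2.38-fold higher (1.25 ± 0.21, adjusted p = 0.000423), with no overlap, and 2.98-fold without WT replicate 3. It averaged 350 ± 68.7 (SD, n = 3) in the knockout at low dose and 1304 ± 101 in the wild type at high dose, and at high dose the knockout was not called different from the wild type (-0.54 ± 0.21, adjusted p = 0.112). Among 16 measured BATF, IRF and AP-1 family genes, 4 were higher and 1, Batf itself, was lower; the list's median was 0.11, beside -0.01 for all genes. The higher ones were Irf4, Irf8 (1.98-fold, adjusted p = 0.00216), the stress-induced factor Atf3 (3.12-fold, adjusted p = 0.00018) and Jun, a partner of BATF (2.21-fold, adjusted p = 0.000542). Junb and Jund, also partners, differed by 0.14 ± 0.17 and 0.21 ± 0.12, with intervals within 2-fold.

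The steepest fall was of Il10. This gene of an anti-inflammatory cytokine read 472, 264 and 546 in the wild type at low dose against 8.57, 8.99 and 7.44 in the knockout at high dose. The groups differed by 49.2-fold (-5.62 ± 0.26, adjusted p = 4.74e-13), or 17.5-fold after adding 16 to the intensities. The knockout at low dose averaged 8.73 ± 1.23 and naive wild-type cells 7.20 ± 0.403 (SD, n = 3), and the dose difference in the knockout was -0.06 ± 0.26 (adjusted p = 0.949).

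Of 17 measured cytokine genes of TH2 or activated helper cells, 6 were lower and 2 higher, with a median of -0.48 for the list (-0.26 without WT replicate 3) beside -0.01 for all genes. Lif, an IL-6 family cytokine, read 1377, 1224 and 1888 against 187, 359 and 307, 5.37-fold lower (-2.42 ± 0.25, adjusted p = 4.46e-07). The knockout arrays were all lower than any wild-type array, though the dose did raise Lif within the knockout, from 76.8 ± 23.4 (SD, n = 3). Penk, which encodes the enkephalin precursor, was 370, 242 and 495 against 36.8, 56.2 and 44.1 (-2.98 ± 0.24, adjusted p = 1.11e-08). Inhba, the activin A subunit, read 86.7, 93.4 and 262 against 22.3, 27.3 and 21.7 (-2.44 ± 0.26, adjusted p = 8.79e-07; 5.44-fold lower, 3.81-fold without WT replicate 3). Il21 was 26.9, 21.0 and 28.4 against 5.91, 5.56 and 7.87, under the median gene in both groups (-1.99 ± 0.20, adjusted p = 2.03e-07). Il24, an IL-10 family gene, was 3.30-fold lower (adjusted p = 0.00301) but 2.04-fold without WT replicate 3, and its call was lost when only the 6 arrays compared were fitted (adjusted p = 0.0878).

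The signature TH2 cytokines gave no call. Il4 read 22.2, 18.1 and 99.9 against 18.8, 23.6 and 21.6 (-0.69 ± 0.35, adjusted p = 0.393), so 1 wild-type array stood above all the others; without that array the direction turned, to 1.06-fold higher in the knockout (adjusted p = 0.909). Il13 read 48.6, 41.5 and 168 against 44.6, 61.7 and 62.9 (-0.32 ± 0.34, adjusted p = 0.79), and it too turned to 1.24-fold higher without WT replicate 3 (adjusted p = 0.666). Il5 averaged 8.22 and 8.61. With all arrays the intervals reached -1.42 for Il4 and -1.03 for Il13, and the direction of both rests on that array. In the wild type at high dose these genes averaged 330 ± 61.7 for Il4 and 2108 ± 817 for Il13 (SD, n = 3). The 2 cytokine genes that were higher encode colony stimulating factors: Csf1 was 70.8, 82.0 and 106 against 376, 261 and 242 (3.38-fold higher, adjusted p = 3.43e-06), and Csf2 was 1.61-fold higher at a dim level (adjusted p = 0.0156), a call lost without WT replicates 1 or 2 (0.0732, 0.115) or knockout replicates 2 or 3 (0.0536, 0.133), and in the fit of the compared arrays alone (0.094).

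Of 17 measured regulators and receptors of TH2 cells, 8 were lower and none higher (median -0.34). The fall was not shared by the whole list: 6 estimates lay above 0, and 10 of the 17 intervals lay within 2-fold. With cyclic loess or quantile normalisation, 1 was higher. Cyp11a1, the enzyme that starts steroid synthesis, read 272, 236 and 252 against 50.1, 59.1 and 48.9, 4.82-fold lower (adjusted p = 3.67e-09). Ecm1, a matrix protein that TH2 cells use to leave lymph nodes, read 1299, 1405 and 958 against 386, 324 and 314 (3.54-fold, adjusted p = 6.66e-07). Maf, a transcription factor of IL-4 and IL-10 producing cells, was 134, 73.7 and 102 against 23.8, 28.9 and 32.1 (3.57-fold, adjusted p = 4.39e-06). In all 3 the groups did not overlap. Pparg, the lipid-sensing nuclear receptor, was 2.73-fold lower (adjusted p = 2.44e-07), Ccr4, a homing receptor of TH2 cells, 2.18-fold (adjusted p = 3.85e-06) and Il4ra, the receptor of the polarising cytokine, 2.27-fold (adjusted p = 5.23e-06). Gata3, the TH2 master regulator, read 1060, 1266 and 1185 against 881, 832 and 718, 1.45-fold lower (adjusted p = 0.0118). This smaller difference lost its call without WT replicate 2 (0.0731), without knockout replicate 3 (0.0913) and in the fit of the compared arrays alone (0.0565), and its interval lay within 2-fold.

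Promoters of 4 of the genes that fell are shown because each carries the AP-1 motif TGANTCA, which is its own reverse complement and was searched as such. The sequences are RefSeq's for GRCm38.p6, 250 bases before to 50 bases after the gene start, written 5′ to 3′ on the gene's strand with the motif in capitals. Lif lies at chr11:4257318-4257617 on the plus strand, Nts at chr10:102490369-102490668, Gzmb at chr14:56262285-56262584 and Ccr4 at chr9:114496495-114496794, all 3 on the minus strand. In Ccr4 the motif begins 143 bases before the start and directly follows gaaa, a core recognised by interferon regulatory factors. In Nts it begins 207 bases before the start and gaaa directly follows it. It begins 228 bases before the start in Lif and 58 in Gzmb.
Lif: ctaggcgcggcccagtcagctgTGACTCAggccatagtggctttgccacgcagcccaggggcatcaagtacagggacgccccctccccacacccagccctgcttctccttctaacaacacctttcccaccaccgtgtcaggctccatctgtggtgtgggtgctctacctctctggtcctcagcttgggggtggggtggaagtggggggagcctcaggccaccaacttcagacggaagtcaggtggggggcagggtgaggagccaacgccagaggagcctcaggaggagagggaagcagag
Nts: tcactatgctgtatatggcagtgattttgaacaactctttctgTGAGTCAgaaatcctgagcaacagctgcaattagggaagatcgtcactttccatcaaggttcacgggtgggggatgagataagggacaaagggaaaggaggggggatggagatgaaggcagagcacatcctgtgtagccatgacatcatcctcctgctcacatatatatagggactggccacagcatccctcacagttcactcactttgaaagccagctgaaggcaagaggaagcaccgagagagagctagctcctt
Gzmb: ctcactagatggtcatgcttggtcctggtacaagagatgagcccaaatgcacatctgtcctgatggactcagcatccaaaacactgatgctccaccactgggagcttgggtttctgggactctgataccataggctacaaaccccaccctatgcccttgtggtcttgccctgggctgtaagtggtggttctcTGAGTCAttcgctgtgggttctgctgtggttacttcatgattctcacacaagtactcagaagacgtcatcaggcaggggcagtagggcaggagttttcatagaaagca
Ccr4: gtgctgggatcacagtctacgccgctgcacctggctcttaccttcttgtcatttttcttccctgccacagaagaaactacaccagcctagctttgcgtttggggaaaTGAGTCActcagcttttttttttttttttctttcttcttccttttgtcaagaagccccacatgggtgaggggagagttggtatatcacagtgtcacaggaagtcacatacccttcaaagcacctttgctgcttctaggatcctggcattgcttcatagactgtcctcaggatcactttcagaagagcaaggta

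Among 15614 genes with a promoter sequence, 8.08% held TGANTCA. The share was 18.7% of 107 genes called lower by at least 2-fold (20 genes), 10.5% of 354 called lower at any size, 6.75% of 474 called higher and 4.67% of 150 called higher by at least 2-fold. Matches to composite elements, an AP-1 site with an IRF site, were held by 0.692% of all these promoters. They were held by 2.80% of those lower by at least 2-fold (3 genes) and 0.667% of those higher by at least 2-fold (1 gene). The AP-1 part of such a match need not be TGANTCA, and a gap of 4 bases between the parts was allowed. The match in Nts, 1 of the 3 genes, has this gap and holds no TGANTCA. It is thus a different stretch from the Nts motif shown in capitals above. These shares are a description of 300-base windows. A match is a description and not a binding site, and no match says only that these letters are not in the window.

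Other genes that fell by more than 6-fold had varied roles. Cd24a, a surface glycoprotein, read 1202, 1201 and 1481 against 47.6, 51.0 and 73.4 (22.9-fold, adjusted p = 8.03e-09). Nts, the neurotensin precursor, was 237, 66.6 and 526 against 15.4, 18.0 and 15.6, and its fold of 12.4 (adjusted p = 1.49e-05) became 21.7 without WT replicate 2 and 7.72 without WT replicate 3, so the size is uncertain while the groups stay apart. Gzmb, the cytotoxic protease granzyme B, was 188, 328 and 101 against 15.8, 15.3 and 15.8 (11.8-fold, adjusted p = 3.72e-09). S100a6, a calcium-binding protein, was 9.17-fold lower (adjusted p = 6.75e-07), the growth factor gene Hgf 7.12-fold (adjusted p = 1.44e-08), the semaphorin Sema4f 6.43-fold (adjusted p = 3.72e-09) and Olfr60 6.44-fold at a dim level (adjusted p = 1.7e-06).

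Another set within the largest falls was expressed far more in the wild type at high dose. Lilr4b, an immunoglobulin-like receptor, read 86.2, 86.1 and 117 in the wild type at low dose, 7.94, 9.14 and 11.5 in the knockout at high dose and 1982 ± 425 (SD, n = 3) in the wild type at high dose. Ctla2a, a cathepsin inhibitor, read 69.9, 52.5 and 74.2 against 7.72, 6.53 and 6.21 (9.54-fold, adjusted p = 3.3e-09), and 595 ± 99.2 in the wild type at high dose. The low-dose wild type thus held a part of the level of the high-dose wild type, and the knockout arrays were all below it; Lilr4b differed by 10.1-fold (adjusted p = 3.63e-09). Lilrb4a, a near-identical copy of Lilr4b, was 5.30-fold lower (adjusted p = 2.44e-07), and probes may not tell the copies apart. Metallothioneins, which bind zinc, gave another picture: Mt1 averaged 65.2 ± 26.3 and 93.5 ± 6.03 and Mt2 12.9 ± 1.89 and 27.3 ± 21.1 in the compared groups (neither called, adjusted p = 0.473 and 0.141, but Mt2 was 2.38-fold higher without knockout replicate 1, adjusted p = 0.00561), against 2298 ± 483 and 2121 ± 357 in the wild type at high dose (SD, n = 3).

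Of the 4 groups of day 4, Gpr65, which encodes a proton-sensing receptor, was low in the knockout at high dose. It read 346, 299 and 399 in the wild type at low dose and 37.3, 40.9 and 26.6 in the knockout at high dose (10.1-fold, adjusted p = 1.58e-08). It averaged 454 ± 136 in the wild type at high dose and 387 ± 49.4 in the knockout at low dose (SD, n = 3), and neither the dose in the wild type nor the genotype at low dose gave a call (adjusted p = 0.504 and 0.923).

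**Figure D2:**
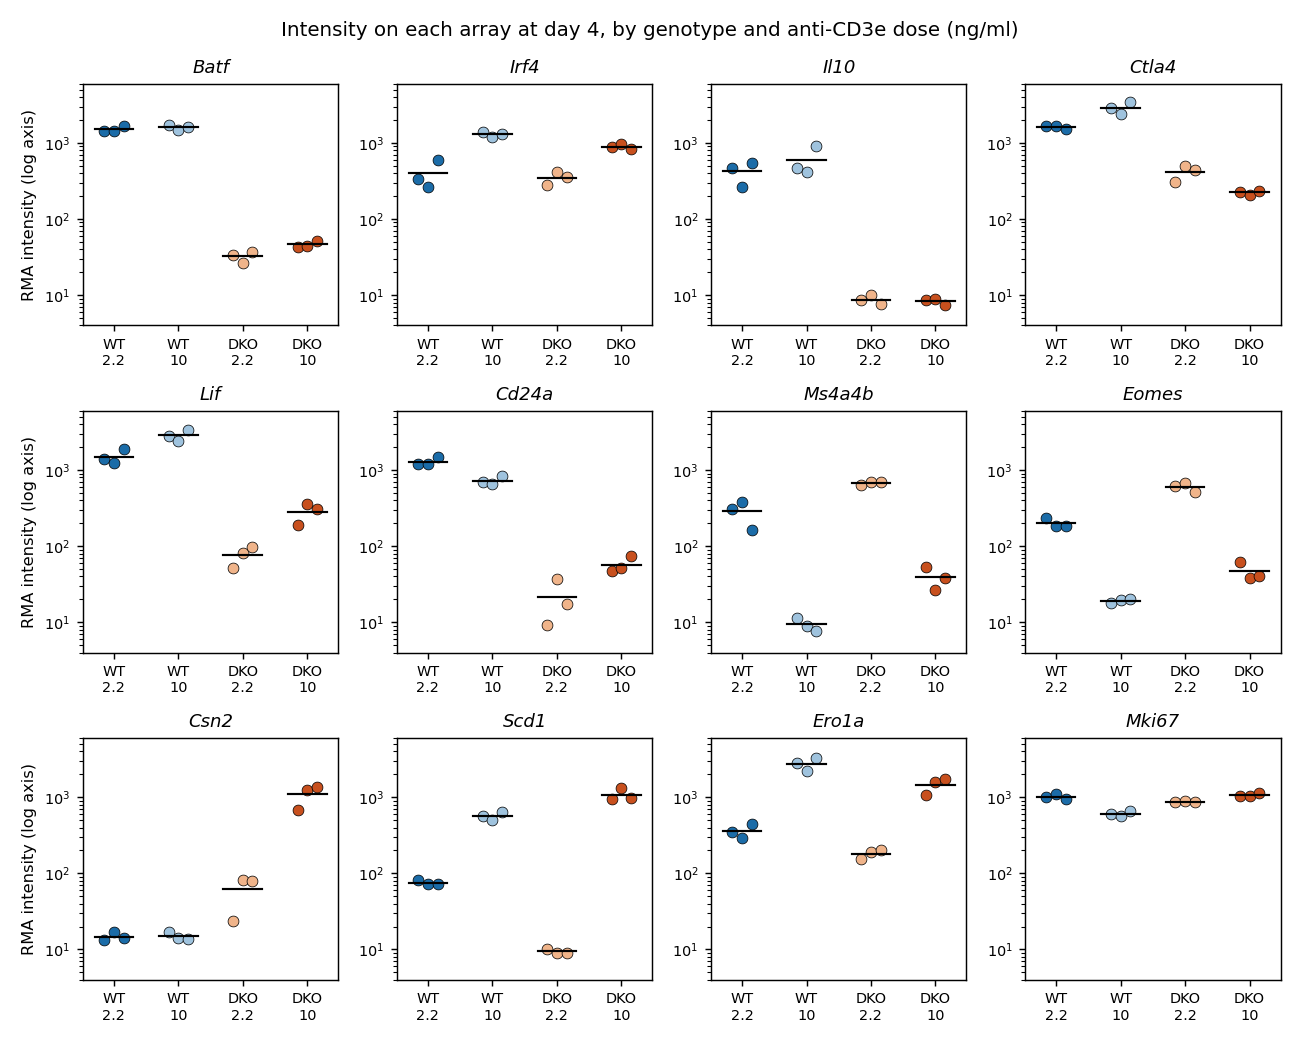
RMA intensity (log axis) of 12 genes on each of the 12 arrays of day 4; points are arrays, bars group means, and the horizontal axis gives genotype and anti-CD3e dose in ng/ml. Il10, Lif, Cd24a and Ctla4 are lower in both knockout groups than in either wild-type group, Irf4, Scd1 and Ero1a are higher at 10 ng/ml in both genotypes, Ms4a4b and Eomes are lower there, and Csn2 reaches 685 to 1356 in the knockout at 10 ng/ml.

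Genes of metabolism ran the other way. Of 15 measured genes of cholesterol synthesis and uptake, 8 were higher and none lower (median 0.74; all 15 estimates above 0), though the count was 5 without WT replicate 2. Hmgcs1, which makes HMG-CoA, read 329, 322 and 345 against 634, 688 and 619, 1.95-fold higher (adjusted p = 2.88e-05). Mvd, a mevalonate enzyme, was 1.95-fold higher (adjusted p = 0.000151), Lss, lanosterol synthase, 1.84-fold (adjusted p = 0.000695) and Dhcr7, which forms cholesterol in the last step, 1.75-fold (adjusted p = 0.0039). The dose called all 15 higher within the knockout and 2 within the wild type, and the genotype called 11 lower at low dose and 9 higher at high dose.

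Of 19 measured ATF4 targets and genes of amino acid transport and one-carbon metabolism, 9 were higher and none lower (median 0.60). Asns, asparagine synthetase, read 172, 161 and 194 against 420, 595 and 500, 2.86-fold higher (adjusted p = 6.18e-06), and Chac1, which degrades glutathione, 69.9, 59.5 and 53.6 against 193, 180 and 195 (3.12-fold, adjusted p = 1.24e-06). Neither gene's groups overlapped. The amino acid transporter chains Slc7a5 (1.73-fold, adjusted p = 0.0029) and Slc3a2 (1.59-fold, adjusted p = 0.00295) were higher too. Atf4 itself was 1.52-fold higher (adjusted p = 0.00585), a call lost without WT replicate 2 (0.0599). Within the knockout the dose called 12 of the 19 higher, and within the wild type 8 higher and 1 lower.

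Hypoxia targets outside glycolysis included 5 higher and 1 lower of 15 measured (median 0.62). Ero1a, an oxidase of the endoplasmic reticulum, read 345, 290 and 439 against 1058, 1566 and 1732, 4.03-fold higher (adjusted p = 1.57e-07), and Bnip3, a mitophagy receptor, 326, 227 and 546 against 936, 1033 and 1116 (2.99-fold, adjusted p = 0.000309). Vegfa, the angiogenic factor, was 2.76-fold higher (adjusted p = 0.000979) and Mxi1, a MYC antagonist, 1.95-fold (adjusted p = 0.00178). The lower gene was Hif1a, the hypoxia-inducible factor itself: 662, 748 and 821 against 346, 314 and 358, 2.19-fold lower (adjusted p = 2.44e-07). Hif1a averaged 373 ± 21.7 in the knockout at low dose and 1785 ± 22.5 in the wild type at high dose (SD, n = 3), and its dose difference in the knockout was -0.14 ± 0.11 (adjusted p = 0.624), beside 2.97 ± 0.19 for Ero1a (adjusted p = 2.79e-10). All values of Ero1a in the wild type at high dose, averaging 2748 ± 532, exceeded those of the other 3 groups.

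Glucose uptake and glycolysis genes were higher on 4 counts of 13 (median 0.44; all 13 estimates above 0), but the count is not firm: it was 0 without WT replicate 2 or knockout replicate 3, 2 without WT replicate 1 or knockout replicate 2, and 7 without WT replicate 3. Slc2a1, the glucose transporter GLUT1, read 553, 438 and 617 against 809, 946 and 1047 (1.75-fold, adjusted p = 0.015; 0.108 without WT replicate 2, 0.0577 without knockout replicate 2, 0.0874 without knockout replicate 3 and 0.0606 in a fit of the 12 arrays of day 4). Aldoa, aldolase, was 1.51-fold higher (adjusted p = 0.0263) and lost its call without any 1 of 5 of the 6 arrays (0.0582 to 0.167), all but WT replicate 3. Ldha, lactate dehydrogenase, differed by 0.16 ± 0.17 (adjusted p = 0.785) with an interval within 2-fold. Within the knockout the dose called 12 of the 13 higher, and at low dose the genotype called 12 lower.

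**Figure D3:**
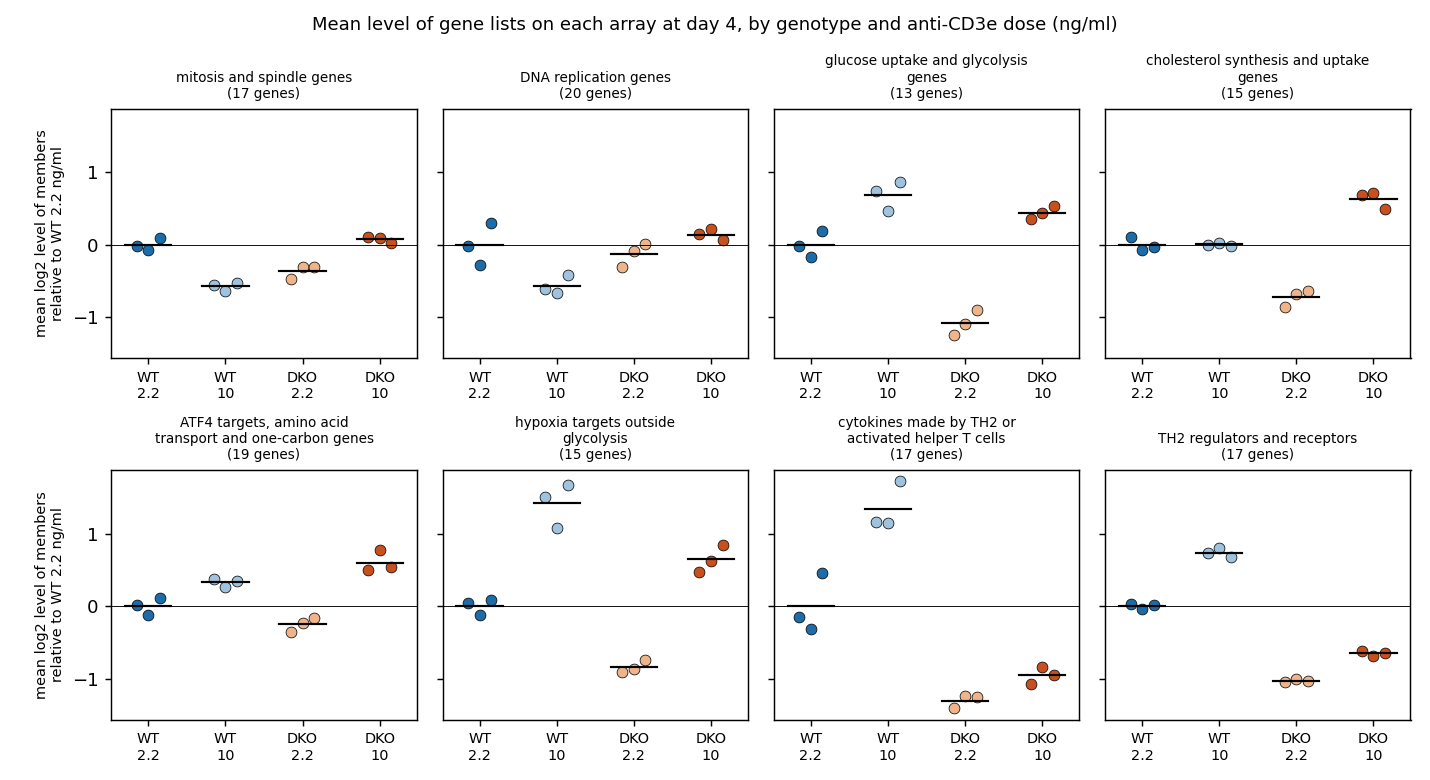
Mean log2 level of the members of 8 gene lists on each array of day 4, relative to the mean of the WT arrays at 2.2 ng/ml; points are arrays, bars group means, and the horizontal axis gives genotype and dose in ng/ml. The knockout at 10 ng/ml lies near the wild type at 2.2 ng/ml for mitosis and DNA replication, above it for the 4 metabolic lists and below it for both TH2 lists.

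Genes of cell division gave no call between the compared groups. None of 17 measured mitosis and spindle genes and none of 20 DNA replication genes was called, and all of them had intervals within 2-fold. Over all genes 2.9% were called higher and 2.21% lower, and 94.5% had intervals within 2-fold, so lists of this size with few or no calls lie near the share of all genes. Without WT replicate 3, 1 replication gene was called higher and the replication median went from 0.11 to 0.31. Mki67, the proliferation marker, read 994, 1098 and 944 against 1051, 1037 and 1150 (0.09 ± 0.14, adjusted p = 0.876), and Pcna, the replication clamp, 2483, 2168 and 2716 against 2608, 2649 and 2639 (0.11 ± 0.12, adjusted p = 0.816), with overlapping groups in both. In the wild type at high dose 12 of the 17 mitosis and 11 of the 20 replication genes were lower there than in the wild type at low dose, and 13 and 17 were higher in the knockout than in the wild type at high dose. Mki67 averaged 606 ± 49.1 (SD, n = 3) in the wild type at high dose.

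Of 21 genes that report the strength of T cell receptor signalling, 6 were higher and none lower (median 0.40; 0.51 without WT replicate 3). The count of higher genes was 4 without WT replicate 1 or knockout replicate 2, 5 without knockout replicate 3 and 7 without WT replicate 3. Egr2, a negative regulator of T cell activation, was just short of a call on the lower side (1.93-fold, adjusted p = 0.0525), and was called without WT replicate 1 or 2 (0.0498, 0.0368) and with cyclic loess (0.0466) or quantile normalisation (0.0404). Nr4a3, a nuclear receptor induced within hours of receptor engagement, read 42.5, 73.4 and 73.8 against 191, 270 and 320 (4.16-fold, adjusted p = 2.3e-06), and Rel, the NF-κB subunit c-Rel, 287, 297 and 330 against 681, 699 and 726 (2.30-fold, adjusted p = 1.6e-07). Both had groups that did not overlap. The early activation marker Cd69 was 2.46-fold higher (adjusted p = 0.00682) and Tnfrsf9, which encodes 4-1BB, 2.25-fold (adjusted p = 4.58e-05). In the wild type the higher dose went with lower levels of Nr4a3 (36.1 ± 7.15), Rel (224 ± 7.08) and Cd69 (35.5 ± 12.7; SD, n = 3). Of the 21 genes, the dose called 5 higher and 4 lower in the wild type (median 0.07), and 4 higher and 2 lower in the knockout (median 0.30). The genotype called 6 higher and 3 lower at low dose, so the list did not simply follow the dose. Il2ra, the IL-2 receptor alpha chain, differed by -0.20 ± 0.21 (adjusted p = 0.786), and Myc by 0.30 ± 0.13 (adjusted p = 0.253), both with intervals within 2-fold.

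Costimulatory and inhibitory receptors and ligands moved both ways, 6 higher and 5 lower of 21 (median 0.05; 0.13 without WT replicate 3). Ctla4, the inhibitory receptor, read 1682, 1652 and 1500 against 228, 206 and 236, 7.21-fold lower (-2.85 ± 0.26, adjusted p = 7.92e-08), with no overlap. It averaged 2895 ± 569 in the wild type at high dose and 415 ± 94.1 in the knockout at low dose (SD, n = 3): the higher dose called it higher in the wild type and lower in the knockout (0.83 ± 0.26 and -0.87 ± 0.26, adjusted p = 0.0332 and 0.0411). Icos, a costimulatory receptor, was 1.46-fold lower (adjusted p = 0.00747; 0.0568 without WT replicate 2 and 0.061 in the fit of the compared arrays alone). Among the higher were Cd200, an inhibitory ligand (4.63-fold, adjusted p = 3.81e-06), Tnfsf8, the CD30 ligand (3.41-fold, adjusted p = 6.23e-07), and Tnfsf11, which encodes RANKL (2.39-fold, adjusted p = 3.16e-05). Cd28 and Pdcd1, which encodes PD-1, differed by 0.03 ± 0.13 and 0.11 ± 0.22, both with intervals within 2-fold.

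Regulators of effector and naive T cells were lower where they were called at all. Of 17 effector regulators 6 were lower and none higher (median -0.34; -0.50 without WT replicate 3), apart from Bhlhe40, which was higher without WT replicate 3 (1.93-fold, adjusted p = 0.0204, beside 0.228 with it). Eomes, a T-box factor, read 232, 186 and 182 against 62.1, 38.2 and 40.2 (4.36-fold, adjusted p = 3.87e-05), and Prdm1, which encodes BLIMP-1, 88.9, 63.3 and 69.5 against 27.9, 21.2 and 26.0 (2.94-fold, adjusted p = 3.97e-06). The Ikaros family member Ikzf3 was 3.41-fold lower (adjusted p = 1.1e-06) and Runx1 1.96-fold (adjusted p = 0.000119). Eomes averaged 599 ± 82.5 in the knockout at low dose and 19.1 ± 1.07 in the wild type at high dose (SD, n = 3). Tox, a nuclear factor of persistently stimulated T cells, overlapped between the compared groups, at 395, 412 and 305 against 393, 363 and 315 (-0.05 ± 0.15, adjusted p = 0.952; interval within 2-fold), while it averaged 27.7 ± 5.02 in the wild type at high dose.

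Of 18 naive and quiescence genes 6 were lower and none higher (median -0.20, and -0.33 without WT replicate 3; 1 was higher without WT replicate 1). Ms4a4b, a membrane protein of naive cells, read 309, 386 and 163 against 53.7, 26.5 and 37.8 (7.13-fold, adjusted p = 8.57e-07). Igfbp4 was 3.63-fold lower (adjusted p = 2.92e-06), S1pr1, the egress receptor, 3.67-fold (adjusted p = 5.01e-05), and the chromatin organiser Satb1 1.81-fold (adjusted p = 5.77e-05). Ms4a4b was 678 ± 29.9 in the knockout at low dose and 9.37 ± 1.96 in the wild type at high dose (SD, n = 3). Il7r, Lef1 and Ccr7 differed by 0.01 ± 0.20, 0.05 ± 0.13 and 0.48 ± 0.17, each with an interval within 2-fold. Among 23 homing receptors and integrins 6 were lower and 1, the adhesion receptor Cd44, was higher: 122, 142 and 153 against 324, 375 and 323 (2.45-fold, adjusted p = 2.03e-06). Cxcr6, a chemokine receptor of effector cells, was 5.05-fold lower (adjusted p = 1.86e-08) and Itga4, an integrin chain, 1.99-fold (adjusted p = 9.87e-05).

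Interleukin receptors and their signalling genes gave 6 lower and 1 higher of 20 (median -0.21), and without WT replicate 2 or knockout replicate 2 none was higher. Stat3, the transducer of IL-6 and IL-21 signals, was 425, 377 and 398 against 217, 236 and 216 (1.79-fold lower, adjusted p = 7.83e-05), and Socs3, its feedback inhibitor, 211, 162 and 132 against 54.0, 74.0 and 65.0 (2.59-fold lower, adjusted p = 2.11e-06). Il21r was 1.70-fold lower (adjusted p = 0.000551), while Il2rb differed by -0.22 ± 0.14 with an interval within 2-fold. Of 20 TH1 and cytotoxic genes 5 were lower and 2 higher (median -0.27); Il18r1, the IL-18 receptor, was 3.89-fold lower (adjusted p = 2.34e-07). Of 21 interferon-stimulated genes 4 were lower and none higher (median -0.09; -0.17 without WT replicate 3), Samd9l by 3.73-fold (adjusted p = 9.95e-07) and the RNA sensor Ddx58 by 2.77-fold (adjusted p = 1.52e-05). Of 12 regulatory T cell genes 3 were higher and 1 lower (median 0.29; 0.44 without WT replicate 3); Lrrc32, which encodes GARP, was 2.09-fold higher (adjusted p = 0.00371), and Foxp3 averaged 65.9 ± 14.7 against 49.4 ± 2.20 (SD, n = 3; adjusted p = 0.117, and 0.0257 without WT replicate 3).

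**Figure D4:**
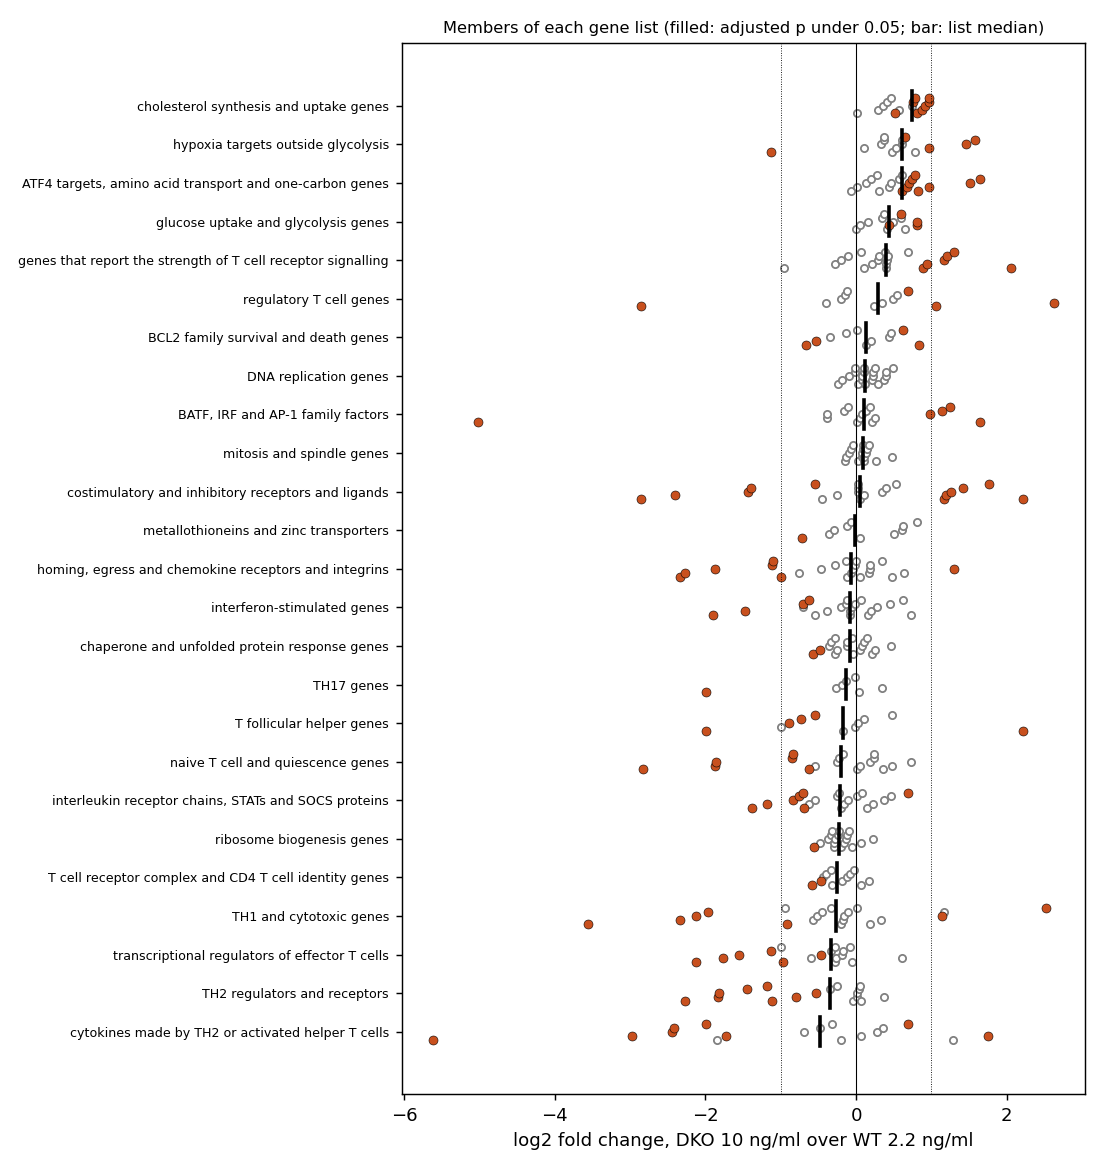
Log2 fold change of the knockout at 10 ng/ml over the wild type at 2.2 ng/ml (horizontal) for the measured members of 25 gene lists (rows). Filled points passed an adjusted p under 0.05, open points did not, black bars are list medians and dotted lines mark 2-fold; the medians run from 0.74 for cholesterol genes to -0.48 for helper cell cytokines, and without WT replicate 3 from 0.66 for cholesterol genes to -0.50 for effector regulators.

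The largest rises were led by Csn2 and Scd1. Csn2, the milk protein beta-casein, read 13.1, 16.8 and 14.1 in the wild type at low dose and 685, 1235 and 1356 in the knockout at high dose, 71.7-fold higher (6.16 ± 0.31, adjusted p = 1.79e-12). It averaged 15.1 ± 1.84 in the wild type at high dose and 61.4 ± 33.0 in the knockout at low dose (SD, n = 3), and 16.3 ± 2.61 in naive wild-type cells. Scd1, the desaturase that makes oleate, read 82.3, 71.6 and 71.9 against 936, 1306 and 989, 14.2-fold higher (adjusted p = 9.71e-07). It was 9.46 ± 0.693 in the knockout at low dose and 573 ± 72.2 in the wild type at high dose, and the genotypes were not called different at high dose (0.90 ± 0.42, adjusted p = 0.198).

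Nrn1, the neuritin gene, was 196, 134 and 225 against 1079, 1096 and 1036 (5.92-fold, adjusted p = 1.77e-05), and Ebi3, a subunit of IL-27 and IL-35, 63.9, 78.1 and 103 against 394, 472 and 369 (5.11-fold, adjusted p = 7.73e-08). The groups did not overlap for either. Nrp1, which encodes neuropilin 1, was 12.9, 22.4 and 11.9 against 84.9, 111 and 87.6 (6.21-fold, adjusted p = 1.63e-09), and Ccl5, a chemokine, 47.8, 39.4 and 34.8 against 204, 237 and 254 (5.73-fold, adjusted p = 6.75e-07). Ccl5 reached 493 ± 258 in the wild type at high dose (SD, n = 3), while Nrp1 stayed at 15.6 ± 2.20 there. Cth, which makes cysteine, was 9.39-fold higher (adjusted p = 4.84e-10), Pdk4, a brake on pyruvate oxidation, 7.54-fold (adjusted p = 2.44e-07), and Timd2, a TIM family receptor, 9.20-fold (adjusted p = 1.58e-07). The remaining 6 of the 15 largest rises were Tex35 (11.9-fold), Serpinb6b (10.8-fold), Qser1 (9.77-fold), Prrg4 (6.54-fold), Ostn (6.37-fold) and Chn2 (5.34-fold), with adjusted p-values from 4.01e-11 to 1.31e-05.

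Genes of CD4 T cells were detected in both groups, with most estimates below 0. Cd4 read 657, 689 and 615 against 765, 756 and 681 (0.17 ± 0.13, adjusted p = 0.681) and Cd3e averaged 1556 and 1174; of 12 receptor complex and identity genes 2 were lower, Lat (-0.58 ± 0.10, adjusted p = 0.000519) and Thy1 (1.38-fold, adjusted p = 0.0435; lost without WT replicates 1 or 2, 0.21 and 0.124, or knockout replicates 2 or 3, 0.0786 and 0.269, and with fewer arrays fitted, 0.0546 and 0.128), and their summed level was 13714 to 15397 against 11276 to 12442, with no overlap (10 of 12 estimates below 0, median -0.25). Most markers of other cells were low, but only 5 of 10 stromal, epithelial and endothelial markers lay under the median gene in both groups. Of 8 B cell markers 7 lay under the median gene in both groups, the summed level was 128 to 136 against 170 to 207, and Cd79b alone was called (34.0 to 88.8, 2.54-fold, adjusted p = 2.19e-05) while Cd79a, its partner, averaged 12.3 and 11.4. Of 19 myeloid markers 14 lay under the median gene in both, with summed levels of 596 to 766 against 875 to 977; Lyz2 averaged 9.67 and 7.05, H2-Ab1 was 2.48-fold higher (adjusted p = 0.0019), Cd74 2.15-fold higher (adjusted p = 0.00216) and H2-Aa 1.60-fold lower (adjusted p = 0.00973; 0.102 without WT replicate 1 and 0.0911 in the fit of the compared arrays alone). H2-Ab1 was 777 ± 162 (SD, n = 3) in the wild type at high dose. None of 9 CD8 T cell and natural killer, 11 granulocyte, 5 erythroid and platelet, and 10 stromal, epithelial and endothelial markers was called, and the part of other cells in the results above was not tested.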

How the data were processed

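Total RNA of 24 samples was labelled with biotin and hybridised to arrays. Per the submitters' processing notes, the deposited intensities were made with RMA (background correction, quantile normalisation and summary per probe set); its software version is not given in the sources used here. All deposited intensities are linear (1.95 to 14645), so log2 was taken before any test. RMA brings the arrays towards a common distribution, so a shift of all genes together could be hidden, and low levels are compressed towards background. The deposited values did not share it exactly, with array medians from 26.4 to 31.6. The precision rests on the number of arrays, 3 a group. Of 35556 probe sets, 21789 had 1 gene symbol in the platform annotation, 1621 several and 12146 none; 21698 matched RefSeq's GRCm38.p6 table. For 999 genes with several probe sets the brightest was used. No build is named for the files, so gene coordinates are given only for the RefSeq promoters.

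The contrast was fitted with limma 3.58.1 in R 4.3.3 (lmFit and eBayes, 8 group means, 24 arrays) and tested on simulated data. The choices varied were the probe sets used (bright genes, all, or their mean), cyclic loess, quantile normalisation, fits of fewer arrays, array weights, a trend with robust priors, an offset of 16, the replicate number as a block and leaving out each array. Arrays with the same replicate number did not deviate together between the 2 compared groups (correlations of 0.0140, -0.152 and -0.0424), so the numbers were not taken to pair samples. The other groups were not checked in this way. In the wild type, replicate 3 was highest at both doses on the helper cell cytokine list (mean log2 level of 0.45 and 1.72 relative to the low dose). On the cholesterol list it was highest at neither (-0.03 and -0.01). A replicate effect shared within the wild type was not tested.

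The groups were taken from sample titles. The members and gene lists were chosen with earlier results of these data known, so lists are described by counts and medians without a test. The text names Irf4 and the deleted genes, 15 genes in each direction with the greatest fold among those called without overlap, up to 5 called members of each list by p, and up to 3 bright members of each with an interval within 2-fold; predicted genes, small RNAs and receptor segments were skipped. Il4, Il5, Il13, Il24, Csf1, Csf2, Mt1, Mt2, Foxp3, Egr2, Bhlhe40 and Cd4, and the members of marker lists given as levels, were named after their values were seen.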

Additional observations from a re-analysis of the deposited data

Results flagged for a closer look

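Among Batf, Batf3, Irf4 and the genes of largest change, 32 genes were asked whether the effect of the higher anti-CD3e dose differed between genotypes, by the interaction term of the limma fit adjusted over all genes; 22 did. Values are the log2 dose effect in the knockout minus that in the wild type, and no explanation was tested.

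The dose raised the following genes less, or lowered them more, in the knockout. Lilr4b differed by -4.435 (adjusted p = 1.32e-08), Ctla2a by -3.127 (adjusted p = 1.42e-06) and Batf3 by -2.03 (adjusted p = 1.51e-05). Gpr65, which only the knockout lost with dose, differed by -3.839 (adjusted p = 5.29e-07). Ctla4 differed by -1.697 (adjusted p = 0.00467), Timd2 by -1.658 (adjusted p = 0.0194) and Sema4f by -1.434 (adjusted p = 0.00223).

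The dose raised other genes more, or lowered them less, in the knockout. Csn2 stood at 4.257 (adjusted p = 5.37e-07) and Scd1 at 3.893 (adjusted p = 9.62e-05). Tex35 was at 2.486 (adjusted p = 3.06e-05), Nrn1 at 2.396 (adjusted p = 0.00226), Nrp1 at 2.26 (adjusted p = 3.53e-06), Ostn at 2.047 (adjusted p = 9.5e-07), Cth at 1.855 (adjusted p = 0.000219), Serpinb6b at 1.807 (adjusted p = 0.000826), Chn2 at 1.366 (adjusted p = 0.00743) and Ebi3 at 1.06 (adjusted p = 0.0347). For genes near background in both knockout groups the positive value reflects a fall with dose in the wild type: Hgf was at 2.865 (adjusted p = 2.5e-06), Olfr60 at 2.343 (adjusted p = 0.000869) and Gzmb at 2.045 (adjusted p = 0.00106). Penk, at 2.592 (adjusted p = 1.52e-05), and Cd24a, at 2.465 (adjusted p = 0.00262), were higher at the high dose in the knockout; in the wild type Penk was lower there, and Cd24a differed by -0.83 ± 0.36 (adjusted p = 0.14).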

How the results depend on the processing

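Of 175 named genes, 114 were called; 89 of these kept the call under every alternative, 25 lost it under at least 1, none of the called genes reversed, and 8 of the 61 not called gained one. Leaving out each array in turn gave 370 to 567 genes higher, 311 to 485 lower and 18482 to 18709 within 2-fold. The filter on dim genes, which tested 9969 genes, left 9112 within 2-fold. The fit with the replicate block called 585 higher and 445 lower, and 983 of the 1020 calls were kept, so the block changed little and is not taken as a pairing. The remaining alternatives gave 460 to 727 higher and 298 to 578 lower, within 1.5 times of the main counts. With 3 arrays a group and RMA values of unknown background, small differences and dim genes are the least certain.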

Other observations

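Several lists not described above changed little. All 18 measured chaperone and unfolded protein response genes had intervals within 2-fold, beside 94.5% of all genes. The 2 lower ones were Dnajc3 (1.40-fold, adjusted p = 0.0209) and Edem1 (1.49-fold, adjusted p = 0.026). Both calls were lost without WT replicate 1, WT replicate 2 or knockout replicate 3. Hspa8, a constitutive chaperone, differed by -0.11 ± 0.13. All 18 ribosome biogenesis genes had intervals within 2-fold as well (median -0.23, beside -0.01 for all genes; -0.03 without WT replicate 3), and 1, Rrp12, was lower (1.47-fold, adjusted p = 0.0123; 0.0836 without WT replicate 1 and 0.126 without knockout replicate 3, 0.105 with the compared arrays alone).

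Survival genes of the BCL2 family were called both ways, 2 higher and 2 lower of 11; the higher count fell to 1 without WT replicate 2 or any knockout array, and the lower count to 1 without WT replicates 1 or 2 or any knockout array. Mcl1, which protects from apoptosis, read 1133, 1293 and 1064 against 780, 748 and 676 (1.58-fold lower, adjusted p = 0.00107), and Bcl2l11, which encodes the death inducer BIM, 176, 130 and 148 against 312, 247 and 251 (1.79-fold higher, adjusted p = 0.00585). The groups overlapped for neither gene. Of 11 follicular helper genes 4 were lower and 1 higher (2 lower without WT replicates 1 or 2 or knockout replicate 2, 2 higher without WT replicate 1), of 7 TH17 genes 1 was lower, Il21, and of 10 metallothioneins and zinc transporters 1 was lower, Slc39a6 (1.64-fold, adjusted p = 0.0113; lost without WT replicates 1 or 3 or knockout replicate 3, while 1 was higher without WT replicates 1 or 3 or knockout replicate 1).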
